A study of Homo sapiens with 12 samples.

Results

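Solute carrier genes encode membrane proteins that move small molecules across cell membranes. Those expressed in the pools were selected by name and by level, as every symbol of the form SLC, family number, A to Z, member number that had at least 1 CPM (the count scaled by the column total) in at least 3 of the 12 libraries, with the glucose carriers of family SLC2A and the monocarboxylate carriers of family SLC16A set aside. Of 368 symbols of this form among 28278 in the table, 28 belonged to those families, and 194 of the other 340 reached the level and are the members described here. A further 146 fell short of it, 18 of which had no count in any pool. The level is what chose the members, so it is given as a description. Just inside it, the third-highest values were 1.0 CPM for SLC25A53, 1.16 CPM for SLC17A7 and 1.22 CPM for SLC6A16. Just outside it they were 0.981 CPM for SLC30A4, 0.973 CPM for SLC35G2 and 0.894 CPM for SLC18A2. In every one of the 12 pools, 180 of the members were at 1 CPM or more.

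Solute carriers use gradients of sodium, protons, chloride or the substrate itself, and unlike ATP-driven pumps they do not split ATP. Those of the plasma membrane take up amino acids, sugars, nucleosides, vitamins and metals, those of family SLC25 serve the inner mitochondrial membrane, those of family SLC35 bring nucleotide sugars into the endoplasmic reticulum and Golgi, and a further group lets amino acids, metals and heme leave the lysosome. Hydroxychloroquine (HCQ) is a weak base that collects in acidic lysosomes and blocks autophagy, the delivery of cell contents to the lysosome for breakdown.

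RNA was compared between pools evolved under HCQ and control pools passaged in parallel, in cells labelled OVCAR3, an ovarian cancer line, and CCL218, a colorectal cancer line. HCQ-evolved pools had passed through 15 pulses of HCQ, each of 48 h and followed by recovery, were labelled passage 15, and had been without drug for 7 days. Control pools carried the same handling without HCQ and were labelled passage 19, so drug and passage number cannot be told apart. The wells of a plate were combined by position into a left (L), a middle (M) and a right (R) pool, which gave 3 pools for each of the 4 groups. All pools of a group came from a single plate, so p-values measure the spread between pools of that plate. In such bulk samples, fewer cells with a transcript and less of it per cell cannot be told apart.

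Libraries held 31147822 to 59965861 counts. The labels were set against marker genes before the carriers were read. In control pools labelled OVCAR3, the intestinal epithelial markers VIL1 and LGALS4 averaged 241 and 730 CPM, whereas the ovarian markers WT1 and PAX8 averaged 0.296 and 12 CPM and SOX17 and ESR1 had none. Control CCL218 pools were at 187 CPM of VIL1, 1050 CPM of LGALS4, 0.267 CPM of WT1 and 8.31 CPM of PAX8. Both lists were mixed. EMX2, a further ovarian marker, was at 0.0172 CPM in control OVCAR3, whereas MUC16, MSLN and FOLR1 were at 22.4, 14.3 and 4.93 CPM there and at 8.65, 63.6 and 2.56 CPM in control CCL218. Of the intestinal markers, LGR5 and CDX2 were at 25.8 and 10.9 CPM in control OVCAR3, CDH17, GPA33 and FABP1 at 3.34, 3.1 and 2.1 CPM, CDX1 at 0.293 CPM and KRT20 at 0. Summed, the 8 ovarian markers were at 44 to 69.9 CPM in control OVCAR3 and 62.9 to 124 CPM in control CCL218. Since WT1, SOX17, ESR1 and EMX2 were at or near 0, the name OVCAR3 is used here as a label. Whether the labels OVCAR3 and CCL218 hold distinct lines was not tested. Agreement between them is therefore not read as agreement between cells of ovary and colon. Libraries also differed in how levels followed transcript length, with rank correlations from -0.508 to 0.575 across genes against the mean of the line. The R pool of HCQ-evolved OVCAR3 was at the top of this range. It was not alone there. The M control pool of OVCAR3 was at 0.541, and deviations of these pools from their group means correlated at 0.714. In CCL218 the M control and R HCQ-evolved pools were at 0.477 and 0.471. The R pool of HCQ-evolved OVCAR3 stood apart for several carriers below. Calls within OVCAR3 and in the difference between lines in the change that depend on that pool are named.

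Sequence upstream of RefSeq start sites was read for the 161 of 194 members found in the RefSeq promoter table, and is shown for SLC29A4, the member called higher in both lines, and SLC11A2, the member with the largest rise. Each line holds the 250 bases before the RefSeq start (GRCh38.p14), with capitals marking the GC box GGGCGG and the hypoxia response core GCGTG on either strand (CACGC on the opposite one).
SLC29A4, chr7:5282693-5282942, plus strand: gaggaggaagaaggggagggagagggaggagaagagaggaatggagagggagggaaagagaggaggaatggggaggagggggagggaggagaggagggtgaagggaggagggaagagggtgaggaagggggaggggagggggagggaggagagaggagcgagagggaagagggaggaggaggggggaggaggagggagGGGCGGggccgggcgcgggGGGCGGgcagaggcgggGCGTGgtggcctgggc
SLC11A2, chr12:51026385-51026634, minus strand: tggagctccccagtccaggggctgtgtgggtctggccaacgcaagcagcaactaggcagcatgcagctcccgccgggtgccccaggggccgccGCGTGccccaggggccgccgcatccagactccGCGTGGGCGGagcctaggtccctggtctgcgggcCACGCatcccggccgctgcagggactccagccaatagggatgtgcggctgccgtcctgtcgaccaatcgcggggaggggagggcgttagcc
The SLC29A4 window held 2 GC boxes and 1 GCGTG core. In the SLC11A2 window there were 3 GCGTG cores and 1 GC box, which shares 1 base with the middle core, and 16 of its bases lie in an exon of another SLC11A2 transcript in GENCODE 44. A GC box was in 42.6% of all 35116 promoter windows and in 67.1% of those of the members, and GCGTG in 32.2% and 50.3%. All windows include every entry of the promoter table, whereas members have 1 window each and were selected as expressed. These shares are thus of unlike sets, and windows of other expressed genes were not compared. The E-box CACGTG was in 6.34% of all windows and 12.4% of the members', the core ACGTG, which every E-box contains, in 18.5% and 22.4%, the antioxidant core TGACNNNGC in 10.9% and 14.9%, and the C/EBP-ATF element TGATGNAAN in 3.13% and 3.11%. Among carriers called higher in CCL218, 7 of 11 with a window held GCGTG, against 10 of 17 of those called lower.

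By level, the carriers were led by a few genes. Summed over all members, control pools labelled OVCAR3 were at 10900 to 11200 CPM, HCQ-evolved OVCAR3 pools at 11100 to 11500 CPM, control CCL218 pools at 9600 to 10800 CPM and HCQ-evolved CCL218 pools at 12100 to 12400 CPM, in CPM scaled by the trimmed mean of M values (TMM), as all levels below. SLC1A5, the glutamine carrier ASCT2, was the most abundant amino acid carrier at 1020 ± 92.9 CPM in control OVCAR3 and 772 ± 31.6 CPM in control CCL218 (mean ± SD, n = 3 pools). Per kilobase of transcript in control OVCAR3 it was at 353 CPM, SLC25A5, the adenine nucleotide exchanger of mitochondria, at 289 CPM, SLC39A1, a zinc importer, at 124 CPM, SLC4A2, a chloride and bicarbonate exchanger, at 78.1 CPM and SLC52A2, a riboflavin carrier, at 73.1 CPM. Classes were set by family number, not by the known site of each gene. Taking in each class the member with the highest sum of both control groups per kilobase, those of the remaining classes were lower on the same scale in control OVCAR3, at 54.8 CPM for SLC35F2 in the nucleotide sugar and ER-Golgi class (where SLC50A1, at 59 CPM, was higher in this line), 31.7 CPM for SLC10A3 among bile acid and organic ion carriers, 24.8 CPM for SLC45A3 among sugar carriers, 22.9 CPM for SLC17A9 (vesicular ATP), 17.9 CPM for SLC27A2 (fatty acids), 17.1 CPM for SLC66A2 and 7.36 CPM for SLC18B1 (polyamines). These genes were not called in either line by the test given next.

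A gene was called when its Benjamini-Hochberg adjusted p was below 0.05 in the quasi-likelihood test of edgeR, run within a line over all genes tested. In CCL218, 14 of 192 members tested were called higher and 18 lower in HCQ-evolved pools, which is 7.29% and 9.38% of them, where 3.82% of all 12241 genes tested were called higher and 2.64% lower. In OVCAR3, 1 of 191 members was called higher and 4 lower, against 0.647% and 1.21% of all 12204 genes. The median log2 fold change of the members was -0.07 in CCL218 (all genes tested, -0.02) and -0.04 in OVCAR3 (all genes, 0.02), so risen and fallen carriers were on both sides of a middle near 0. Both SLC29A4, which rose, and SLC14A1, which fell, were called in both lines, 40% of the 5 calls in OVCAR3 and 6.25% of the 32 in CCL218. All 5 members called in OVCAR3 had the same sign in CCL218, and 26 of 30 called in CCL218 and tested in OVCAR3 had the same sign there. Overlap and agreement in sign were not computed over all called genes, so neither is read as particular to the carriers. Of the 35 members called in either line, 27 were at 1 CPM or more in all 12 pools, and SLC22A4, SLC6A14, SLC28A1, SLC3A1, SLC38A4, SLC4A4, SLC6A16 and SLC14A1 were under it in at least 1 pool. In the plot of changes in both lines, most of these calls have the same sign in both lines. The 4 with opposite signs, all called in CCL218, are SLC39A8 (-1.06 in CCL218 and 0.22 in OVCAR3), SLC25A15 (-0.57 and 0.19), SLC22A3 (0.82 and -0.17) and SLC6A14 (1.51 and -0.03).

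**Figure D1:**
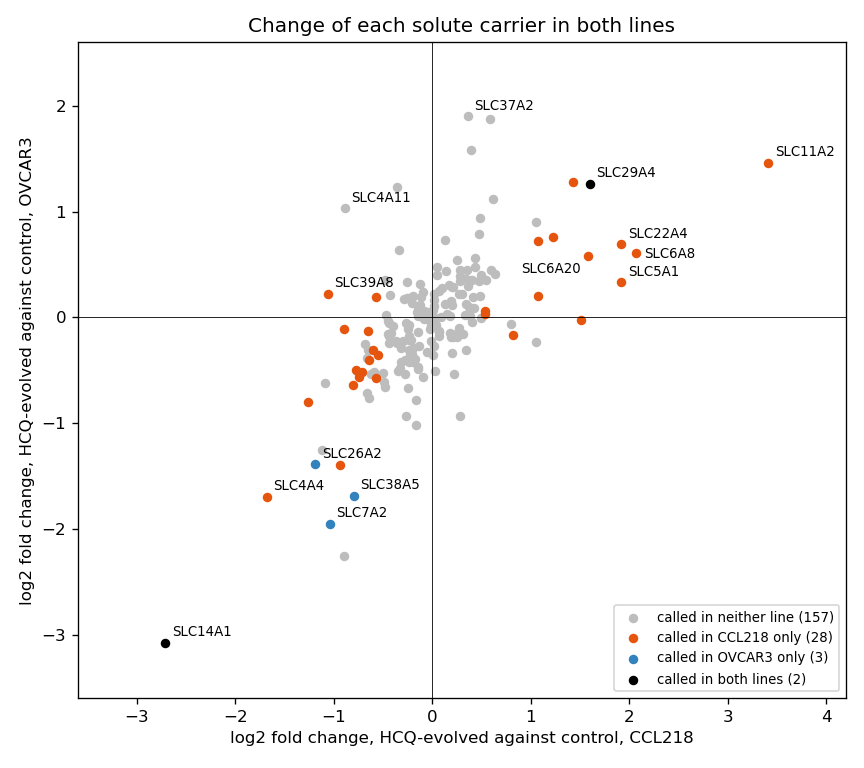
Log2 fold change of HCQ-evolved against control pools for the 190 members tested in both lines, CCL218 on the x axis and OVCAR3 on the y axis. Black points (2) were called in both lines, orange (28) in CCL218 only, blue (3) in OVCAR3 only and grey (157) in neither, and SLC14A1 lies at -2.71 and -3.08 while SLC11A2 lies at 3.41 and 1.46.

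The counts of calls depended on single pools. In CCL218, 68 members were called without the L control pool, 14 without the M control pool, 6 without the R control pool, and 5, 5 and 6 without the L, M or R HCQ-evolved pool. SLC11A2, SLC6A8, SLC5A1, SLC6A20 and SLC14A1 were called in all 6 of these fits. In OVCAR3, 0 of 190 members were called by edgeR without the L control pool and 0 without the R control pool, where 29 had an unadjusted p under 0.05 in each case. SLC14A1 alone was called without the M control or the L or M HCQ-evolved pool, and 14 members without the R HCQ-evolved pool. DESeq2 called 21 members in OVCAR3 with all pools and 52 in CCL218. Shares of all genes called are not given for these or the other alternative fits below. None of their counts is therefore read as particular to the carriers.

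SLC14A1, the urea channel UT-B of the plasma membrane (chr18:45687025-45752520, plus strand, GENCODE 44 on hg38), had the largest fall in both lines. Control OVCAR3 pools were at 13.9, 13.6 and 11.6 CPM (L, M and R, as in all values by pool) and HCQ-evolved pools at 1.96, 1.06 and 1.51 CPM. In CCL218 it was at 30.9, 25.4 and 23.9 CPM in control and at 4.27, 3.19 and 4.83 CPM in HCQ-evolved pools. Every HCQ-evolved pool was below every control pool of its line by a wide gap. The log2 fold change was -3.08 ± 0.28 (standard error, SE) in OVCAR3 (adjusted p = 0.00706) and -2.71 ± 0.20 in CCL218 (adjusted p = 0.00132), and the difference between lines, 0.40 ± 0.32, did not pass the test (adjusted p = 0.931). The related urea carrier SLC14A2 was below the level, with group means from 0 to 0.0638 CPM.

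SLC29A4, the plasma membrane monoamine transporter (chr7:5274369-5306912, plus strand), was the 1 member called higher in both lines. It was at 145, 117 and 111 CPM in control and 300, 305 and 275 CPM in HCQ-evolved OVCAR3, and at 115, 73.7 and 61.3 CPM in control and 265, 260 and 233 CPM in HCQ-evolved CCL218. HCQ-evolved pools were above all control pools in each line, and within control CCL218 the L pool was high. The log2 fold change was 1.26 ± 0.17 in OVCAR3 (adjusted p = 0.0187) and 1.60 ± 0.24 in CCL218 (adjusted p = 0.0130). Its exons overlap TNRC18, on the opposite strand, over 123 bases or 2.11% of its exon sequence, and whether counting used strand was not stated.

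**Figure D2:**
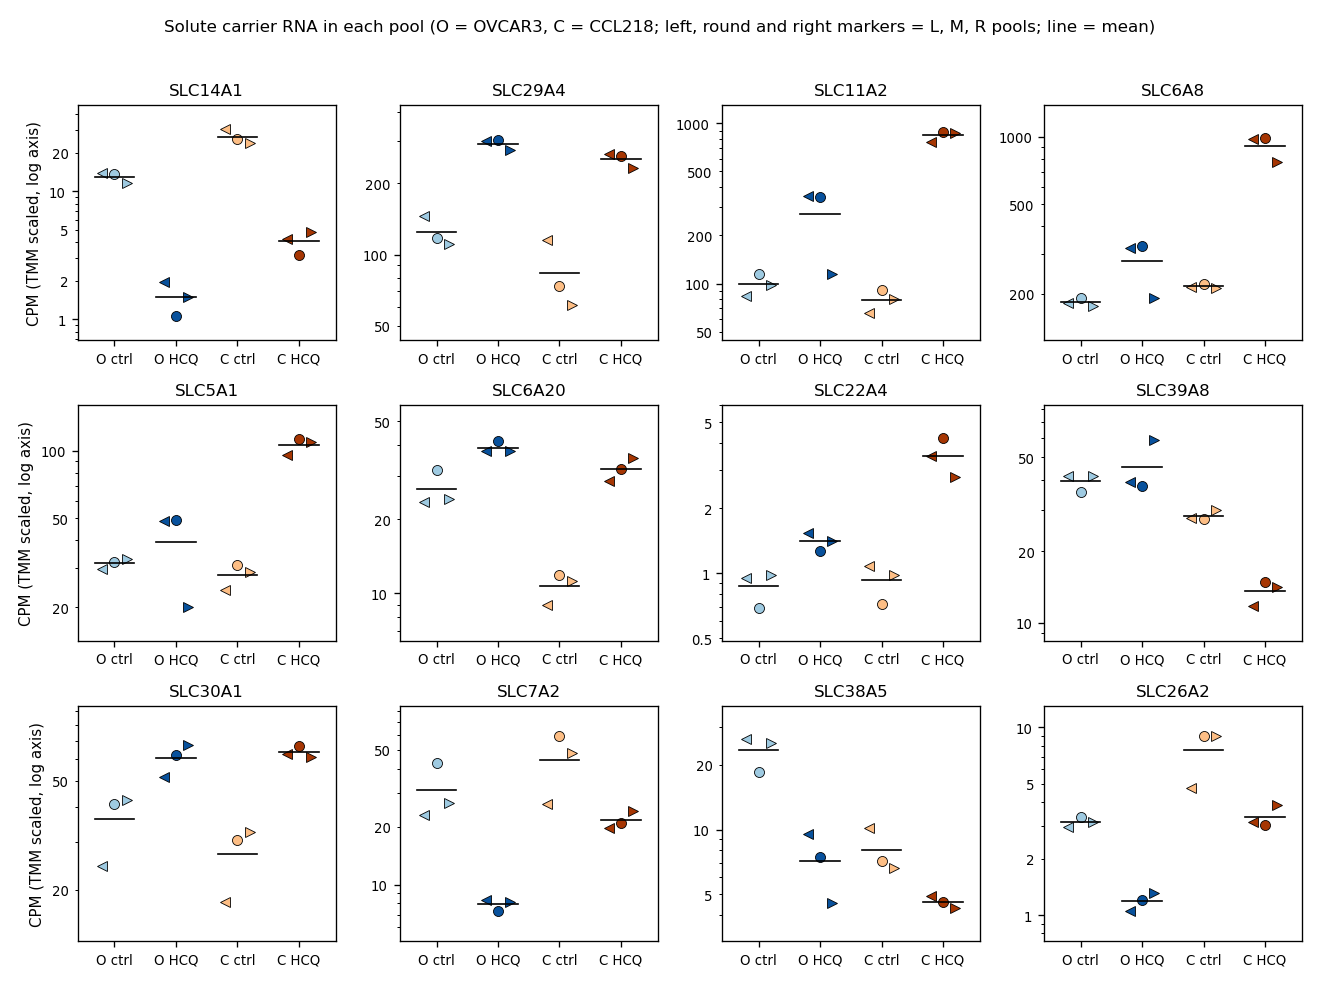
TMM-scaled CPM on a log axis for 12 carriers in each pool of OVCAR3 (O) and CCL218 (C), control and HCQ-evolved, with markers pointing left, round or pointing right for the L, M and R pools and a line at the mean of 3. SLC14A1 falls and SLC29A4 rises in both lines, and the R pool of HCQ-evolved OVCAR3 sits at the control level for SLC11A2 and SLC6A8.

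Among metal carriers, SLC11A2 rose most of all members. It encodes DMT1, which carries ferrous iron with protons at the cell surface and out of endosomes (chr12:50979401-51028566, minus strand). In CCL218 it was at 65.7, 91.2 and 80.7 CPM in control and 767, 883 and 872 CPM in HCQ-evolved pools, a log2 fold change of 3.41 ± 0.17 (adjusted p = 0.000320). Per kilobase, this took it from 19.2 to 204 CPM. In OVCAR3, control pools were at 83.2, 115 and 98.5 CPM and HCQ-evolved pools at 352, 345 and 114 CPM. The L and M pools were thus high and the R pool lay among the controls, and the change, 1.46 ± 0.41, did not pass the test (adjusted p = 0.121). Without that R pool it was 1.82 ± 0.20 (adjusted p = 0.00243).

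Of 23 metal carriers, SLC11A2 and SLC30A1 were called higher (8.7%) and SLC39A8 lower (4.35%) in CCL218, against 3.82% and 2.64% of all genes. In OVCAR3 edgeR called 0, where 2 had an unadjusted p under 0.05 and DESeq2 called 1. SLC30A1, which exports zinc from the cell, was at 18, 30.3 and 32.5 CPM in control CCL218 and 62.4, 67 and 61 CPM in HCQ-evolved pools (1.23 ± 0.23, adjusted p = 0.0248). In OVCAR3 it was at 24.5, 41.2 and 42.6 CPM in control and 51.5, 62.1 and 67.7 CPM in HCQ-evolved pools (0.76 ± 0.27, adjusted p = 0.212). SLC39A8, the importer ZIP8 for zinc and manganese, was at 27.6, 27.4 and 29.8 CPM in control and 11.8, 14.8 and 14.1 CPM in HCQ-evolved CCL218 (-1.06 ± 0.14, adjusted p = 0.00733). The OVCAR3 pools overlapped, at 41.7, 35.6 and 41.5 CPM in control and 39.4, 37.8 and 58.8 CPM after evolution (0.22 ± 0.23, adjusted p = 0.692). Of the 24 zinc carriers of families SLC30 and SLC39, 16 were tested, and SLC30A1 and SLC39A8 were the 2 called, both in CCL218, with a median log2 fold change of 0.21 there and 0.11 in OVCAR3. There edgeR and DESeq2 called 0 of the 16, and 1 had an unadjusted p under 0.05.

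Amino acid carriers moved both ways in CCL218, 4 of 30 called higher and 4 lower (13.3% each, against 3.82% and 2.64% of all genes). SLC6A8, the sodium-coupled creatine carrier (chrX:153687926-153696588, plus strand), was at 214, 221 and 212 CPM in control and 977, 983 and 769 CPM in HCQ-evolved CCL218, so that the groups were far apart (2.07 ± 0.14, adjusted p = 0.00102). In OVCAR3 it was at 182, 192 and 176 CPM in control and 320, 325 and 191 CPM after evolution, where the R pool again lay near the controls (0.61 ± 0.23, adjusted p = 0.230, and 0.82 ± 0.17, adjusted p = 0.0299, without it). A near-identical copy, SLC6A10P, was counted separately at 2 to 13 counts per pool, so reads shared by both are uncertain. SLC6A20, which carries proline, was at 9.0, 11.9 and 11.2 CPM in control and 28.5, 32.1 and 35.5 CPM in HCQ-evolved CCL218 (1.58 ± 0.16, adjusted p = 0.00364). In OVCAR3 it was at 23.5, 31.7 and 24.1 CPM against 37.8, 41.4 and 37.9 CPM, apart but not called (0.58 ± 0.20, adjusted p = 0.194).

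SLC6A14, a carrier of neutral and cationic amino acids, was low in CCL218, at 0.590, 0.566 and 1.11 CPM in control and 2.09, 2.26 and 2.17 CPM in HCQ-evolved pools (1.51 ± 0.31, adjusted p = 0.0332). It reached the filter through its HCQ-evolved pools, where it is high. SLC3A1, the heavy chain of the cystine and dibasic amino acid carrier, was at 2.63, 4.09 and 4.54 CPM against 6.88, 8.78 and 8.09 CPM (1.07 ± 0.23, adjusted p = 0.0416). Its exons overlap those of PREPL on the opposite strand over 29.4% of their length, which leaves its level uncertain. SLC6A16, an orphan member of the sodium- and chloride-coupled family, fell from 1.43, 1.89 and 1.13 CPM to 0.534, 0.492 and 0.251 CPM in CCL218 (-1.81 ± 0.36, adjusted p = 0.0330). SLC38A4, a sodium-coupled neutral amino acid carrier, was as low, at 1.43, 2.48 and 1.96 CPM against 0.616, 0.510 and 0.836 CPM (-1.58 ± 0.31, adjusted p = 0.0315). Neither was at 1 CPM in enough OVCAR3 pools to be tested there, and both passed the filter in CCL218 through their control pools.

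SLC43A1, a sodium-independent carrier of large neutral amino acids, fell from 54.1, 42.9 and 43.2 CPM to 24.6, 27 and 21.6 CPM in CCL218 (-0.94 ± 0.16, adjusted p = 0.0173). Its OVCAR3 pools did not overlap either, at 76.2, 58 and 56.4 CPM against 29.4, 28.7 and 13.3 CPM (-1.40 ± 0.32, adjusted p = 0.0742). In OVCAR3, 2 of 28 amino acid carriers tested were called, both lower (7.14%, against 1.21% of all genes). SLC7A2, a carrier of arginine and other cationic amino acids, was at 23.1, 42.9 and 26.6 CPM in control and 8.35, 7.33 and 8.13 CPM in HCQ-evolved OVCAR3 (-1.95 ± 0.28, adjusted p = 0.0227). In CCL218 it was at 26.2, 58.8 and 48.1 CPM against 19.6, 20.9 and 24.2 CPM (-1.04 ± 0.28, adjusted p = 0.0784). SLC38A5, which exchanges glutamine and other neutral amino acids for protons, was at 26.4, 18.4 and 25.2 CPM against 9.50, 7.43 and 4.57 CPM in OVCAR3 (-1.69 ± 0.30, adjusted p = 0.0398). CCL218 started lower, at 10.2, 7.18 and 6.61 CPM, and was at 4.93, 4.59 and 4.31 CPM after evolution (-0.80 ± 0.20, adjusted p = 0.0646). With plate position as a block, SLC7A2 and SLC38A5 were also called in CCL218 (adjusted p = 0.0149 and 0.0265).

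Sugar, organic cation and nucleoside carriers of the plasma membrane gave further rises. SLC5A1, the sodium-coupled glucose carrier SGLT1 of intestinal epithelium (chr22:32043261-32113029, plus strand), was at 23.8, 30.9 and 28.9 CPM in control and 96.3, 113 and 109 CPM in HCQ-evolved CCL218 (1.92 ± 0.15, adjusted p = 0.00127). In OVCAR3, controls were at 29.8, 31.8 and 32.9 CPM and HCQ-evolved pools at 48.7, 49.1 and 20.1 CPM, with the R pool below every control (0.33 ± 0.33, adjusted p = 0.675). Without the R pool the OVCAR3 change was 0.64 ± 0.18 and still not called (adjusted p = 0.0878). It was the 1 member called among 6 sodium-coupled sugar and monocarboxylate carriers, and that in CCL218 (16.7%, against 3.82% of all genes). In OVCAR3 edgeR and DESeq2 called 0 of the 6 and 1 had an unadjusted p under 0.05.

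In the class of organic ion, bile acid and steroid carriers, 3 of 8 members were called higher in CCL218 and 0 lower. That is 37.5% higher, against 3.82% of all genes, and the 3 belong to family SLC22. In OVCAR3 edgeR called 0 of the 8, where 3 had an unadjusted p under 0.05 and DESeq2 called 1. SLC22A4, which carries ergothioneine, was near the level limit. In CCL218 it was at 1.08, 0.718 and 0.981 CPM in control and 3.51, 4.23 and 2.79 CPM in HCQ-evolved pools (1.92 ± 0.26, adjusted p = 0.00899). It passed the filter there only with its HCQ-evolved pools, where it is high, and it is 1 of the 3 calls. OVCAR3 had 0.954, 0.691 and 0.980 CPM against 1.54, 1.27 and 1.41 CPM (0.69 ± 0.28, adjusted p = 0.279). SLC22A3, the organic cation transporter OCT3, changed by 0.82 ± 0.19 (adjusted p = 0.0490) and the carnitine carrier SLC22A5 by 0.53 ± 0.12 (adjusted p = 0.0498), both close to the threshold. SLC22A4 and SLC22A5 are neighbours on the plus strand of chromosome 5.

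SLC28A1, which takes up pyrimidine nucleosides with sodium, was at 0.467, 0.261 and 0.384 CPM in control and 0.985, 1.02 and 1.0 CPM in HCQ-evolved CCL218 (1.43 ± 0.29, adjusted p = 0.0339). It passed the filter there only through its HCQ-evolved pools, where it is high, so a call could only be a rise. It was higher throughout in OVCAR3, at 1.80, 1.60 and 1.24 CPM against 3.09, 3.13 and 4.84 CPM, where the pools were apart and the change not called (1.28 ± 0.30, adjusted p = 0.0850). Of 21 carriers of vitamins, heme, nucleosides and choline, 2 were called higher (9.52%) and 3 lower (14.3%) in CCL218, against 3.82% and 2.64% of all genes. The 3 called lower were SLC19A2 (thiamine, -0.64 ± 0.15, adjusted p = 0.0462), SLC29A2 (nucleosides, -0.60 ± 0.12, adjusted p = 0.0330) and SLC48A1 (heme, -0.55 ± 0.13, adjusted p = 0.0462).

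Of 26 carriers of inorganic ions and pH, 1 was called higher (3.85%) and 4 lower (15.4%) in CCL218, against 3.82% and 2.64% of all genes. SLC4A4, the sodium bicarbonate cotransporter NBCe1, fell from 5.46, 10.2 and 6.70 CPM to 2.01, 3.10 and 1.91 CPM in CCL218 (-1.68 ± 0.30, adjusted p = 0.0246). The OVCAR3 pools did not overlap either, at 1.60, 2.48 and 2.15 CPM against 1.15, 0.540 and 0.201 CPM (-1.70 ± 0.57, adjusted p = 0.187). SLC9B2, a sodium and proton exchanger, was at 3.86, 4.31 and 4.35 CPM against 1.64, 2.0 and 1.59 CPM in CCL218 (-1.26 ± 0.19, adjusted p = 0.0127). SLC26A1, which carries sulfate and oxalate, changed by -0.74 ± 0.16 (adjusted p = 0.0407) and SLC12A9, a relative of the cation-chloride cotransporters, by -0.65 ± 0.14 (adjusted p = 0.0441).

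SLC26A2, the sulfate carrier needed for sulfated proteoglycans, was called in OVCAR3, where it fell from 2.94, 3.33 and 3.14 CPM to 1.05, 1.20 and 1.31 CPM (-1.39 ± 0.25, adjusted p = 0.0417). In CCL218 it was at 4.77, 9.01 and 9.03 CPM against 3.12, 3.02 and 3.88 CPM (-1.19 ± 0.28, adjusted p = 0.0503). That value was just past the threshold, and with plate position as a block it was called (-1.15 ± 0.23, adjusted p = 0.0118).

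Intracellular carriers of the mitochondria and Golgi gave calls in CCL218. Of 37 mitochondrial members tested in OVCAR3 edgeR called 0, where 3 had an unadjusted p under 0.05 and DESeq2 called 2, and in CCL218 3 of 37 were called lower, 8.11% against the 2.64% of all genes. SLC25A22, the mitochondrial glutamate carrier, fell from 84.4, 62.8 and 67.7 CPM to 41.4, 35.9 and 38.4 CPM (-0.90 ± 0.15, adjusted p = 0.0196). The carnitine-acylcarnitine carrier SLC25A20 (-0.57 ± 0.12, adjusted p = 0.0379) and the ornithine carrier SLC25A15 (-0.57 ± 0.12, adjusted p = 0.0374) changed less. Among 26 nucleotide sugar and Golgi members, SLC35A3, which brings UDP-N-acetylglucosamine into the Golgi, rose by 1.07 ± 0.17 (adjusted p = 0.0144) and SLC35C1, the GDP-fucose carrier, changed by -0.71 ± 0.12 (adjusted p = 0.0175) in CCL218. Each is 3.85% of the 26, where 3.82% of all genes were called higher and 2.64% lower. SLC27A4, a fatty acid transport protein, changed by -0.77 ± 0.14 (adjusted p = 0.0260). Among 5 carriers of phosphate, sulfate and carboxylates edgeR called 0 in either line, where the unadjusted p was under 0.05 for 3 in CCL218 and 1 in OVCAR3 and DESeq2 called 2 and 0.

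**Figure D3:**
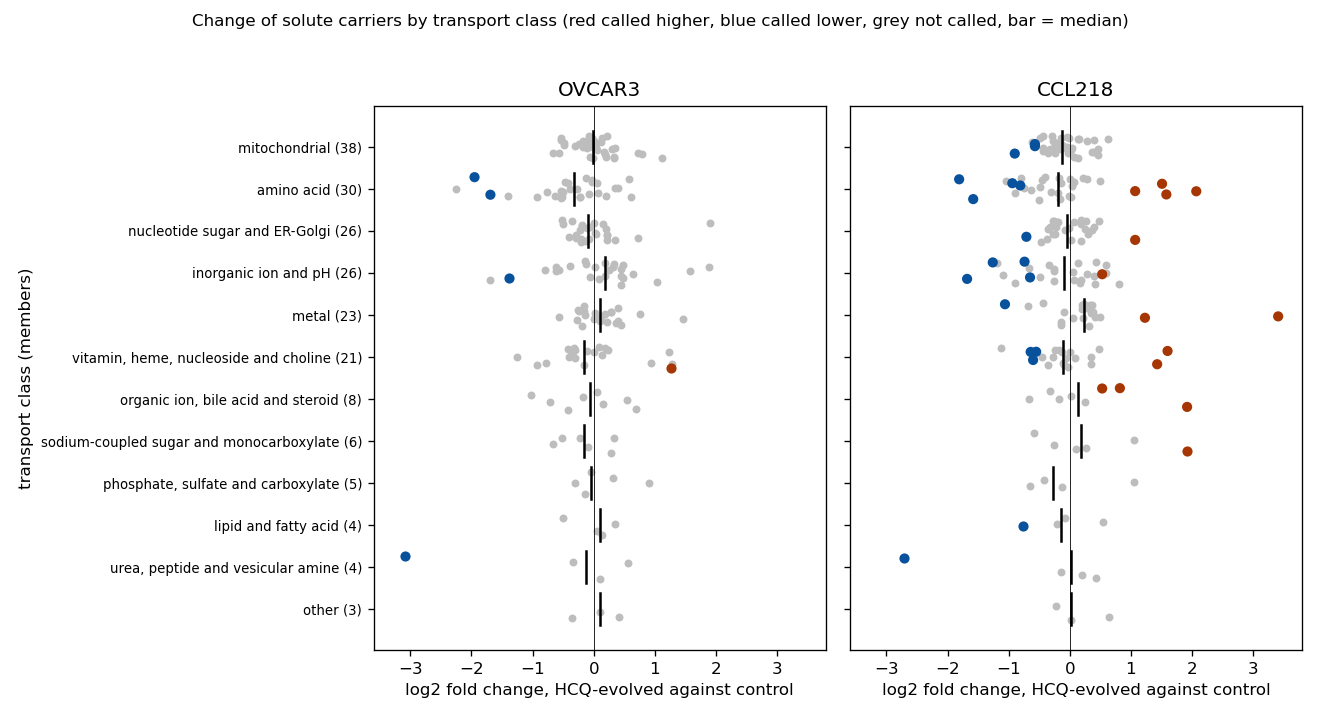
Log2 fold change of HCQ-evolved against control pools for each member, by transport class with the number of members, in OVCAR3 (left) and CCL218 (right). Red and blue points were called higher and lower, grey points were not called, and bars mark class medians, which lie between -0.33 and 0.24 in both lines.

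Carriers of the lysosome and endosome membrane had 12 of 15 listed genes at the level. Their summed level was 214 to 244 CPM in control and 907 to 1030 CPM in HCQ-evolved CCL218, and 229 to 259 CPM and 256 to 485 CPM in OVCAR3, and SLC11A2 made up most of the rise in CCL218. In CCL218 1 of the 12 was called higher (8.33%) and 2 lower (16.7%), against 3.82% and 2.64% of all genes. The higher was SLC11A2, and the lower were SLC48A1, which was given above, and SLC38A7, which exports glutamine from lysosomes, at 27.2, 21.9 and 19.7 CPM against 12.3, 12.9 and 14.3 CPM (-0.81 ± 0.16, adjusted p = 0.0323). SLC17A5, the lysosomal sialic acid exporter sialin, was at 10.8, 26.6 and 21.7 CPM in control and 41.5, 43.1 and 38.1 CPM in HCQ-evolved CCL218, apart but not called (1.05 ± 0.30, adjusted p = 0.0907). With plate position as a block it was called (1.14 ± 0.24, adjusted p = 0.0144). In OVCAR3 it was at 10.1, 20.6 and 17.5 CPM against 26, 28.9 and 34.7 CPM (0.90 ± 0.30, adjusted p = 0.182).

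In OVCAR3 edgeR called 0 of these 12 lysosomal carriers, where 2 had an unadjusted p under 0.05 and DESeq2 called 1, and the others were not called in CCL218 either. SLC38A9, the arginine sensor of the lysosome, had log2 fold changes of 0.07 in OVCAR3 and 0.01 in CCL218. SLC66A1, which exports cationic amino acids, had -0.36 and -0.23, and the proton-coupled amino acid carrier SLC36A1 had -0.52 and -0.75. The nucleoside carrier SLC29A3 had -0.42 and -0.24, and SLC15A4, a carrier of histidine and peptides, had 0.10 and -0.15. SLC11A1, the phagosomal metal carrier, had 0.02 and 0.38, SLC46A3 -0.31 and 0.34, and SLC49A4 -0.11 and -0.02. Without SLC11A2 and SLC17A5, then, the listed lysosomal carriers were between -0.81 and 0.38 in both lines.

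Of 7 carriers of urea and organic osmolytes, 5 were members, and their calls had opposite signs. SLC14A1 was lower in both lines and SLC6A8 higher in CCL218. The myo-inositol carrier SLC5A3 had -0.67 in OVCAR3 and -0.25 in CCL218, the taurine carrier SLC6A6 -0.22 and -0.30, and SLC38A2, a neutral amino acid carrier induced by hypertonicity and by amino acid lack, -0.27 and 0.02, none of them called. The 8 amino acid carriers known as targets of ATF4, the transcription factor of the integrated stress response, were all members, and edgeR and DESeq2 called 0 of them in either line, where 1 had an unadjusted p under 0.05 in OVCAR3 and 0 in CCL218. Their log2 fold changes ran from -0.54 to 0.40 in OVCAR3 and from -0.48 to 0.49 in CCL218. Beside SLC1A5 at -0.13 and 0.07, these were SLC7A11, the cystine importer, at -0.42 and -0.20, SLC7A5, the leucine carrier, at -0.51 and 0.03, its heavy chain SLC3A2 at -0.47 and -0.15, SLC7A1 at 0.35 and -0.48, SLC1A4 at 0.40 and 0.49, the glycine carrier SLC6A9 at -0.54 and 0.22, and SLC38A2.

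**Figure D4:**
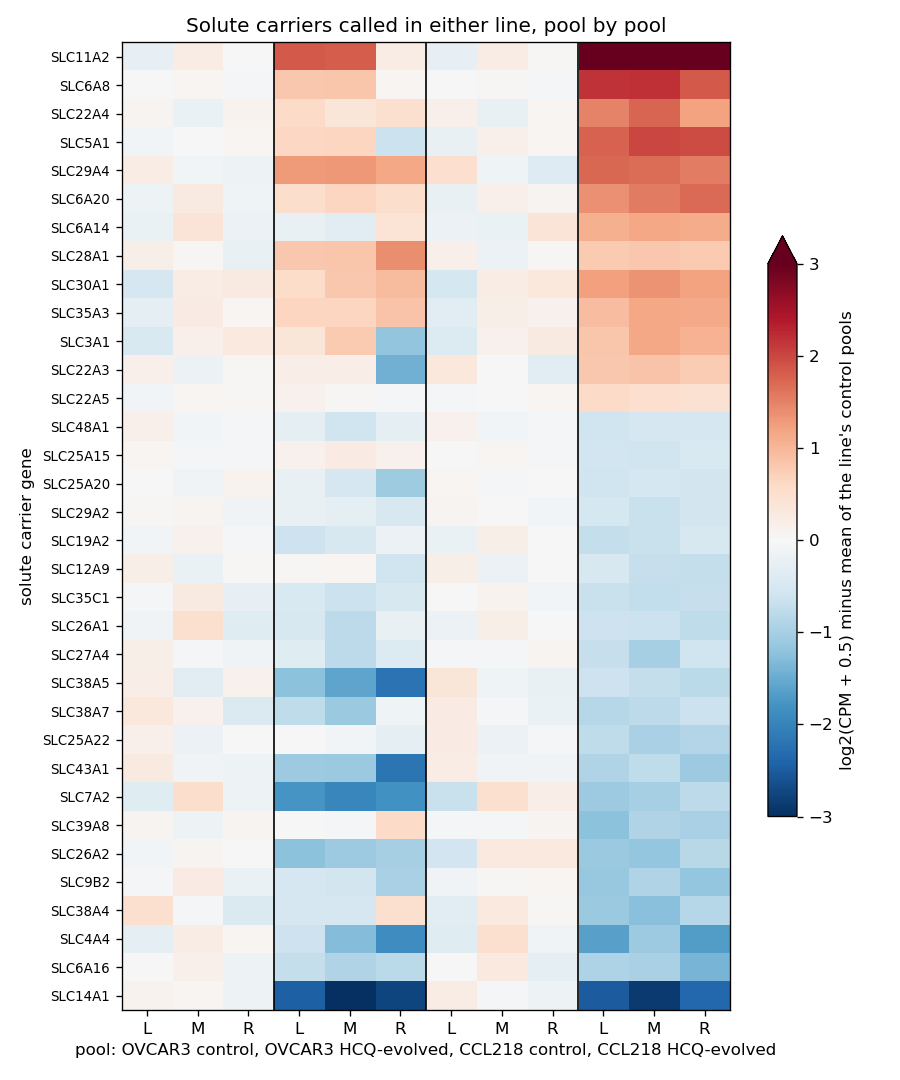
Shown are 34 of the 35 members called in either line (rows, ordered by their log2 fold change in CCL218) in each of the 12 pools (columns), as log2(CPM + 0.5) minus the mean of the control pools of the same line, on a colour scale that ends at 3. Rows at the top are red and rows at the bottom blue in all 3 HCQ-evolved CCL218 pools, and most keep their colour more faintly in OVCAR3, with the R pool set apart for SLC11A2, SLC5A1, SLC3A1 and SLC22A3.

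The carriers chosen by their calls in CCL218 were read in the separate OVCAR3 pools. Relative to the control mean of OVCAR3, the 14 members called higher in CCL218 had medians of 0.56, 0.64 and 0.37 (log2) in the L, M and R HCQ-evolved pools, and 12, 12 and 10 of them lay above it. The 18 called lower had medians of -0.47, -0.58 and -0.44, with 16, 16 and 15 below. For all 194 members the same pools had medians of -0.04, -0.05 and -0.08. Transcripts of the members called higher were longer (median 4334 bases) than those called lower (3364 bases), with 3512 bases for all members, and an offset for length and GC content raised the number called in CCL218 to 55 and in OVCAR3 to 15. The part of transcript length in these changes was not tested beyond that offset.

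More carriers were called in OVCAR3 when the R HCQ-evolved pool was left out. Without it 5 members were called higher and 9 lower, adding SLC11A2, SLC6A8, SLC22A18 and SLC37A2 to SLC29A4 among the higher, and SLC22A23, SLC38A11, SLC43A1, SLC6A9 and SLC7A5 among the lower. SLC37A2, a sugar phosphate carrier of the endoplasmic reticulum, had the largest OVCAR3 rise of any member at 1.90 ± 0.48 but was not called with all pools (adjusted p = 0.0976), and was 1.18 ± 0.27 without the R pool (adjusted p = 0.0425).

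Whether the change differed between lines was tested as an interaction in 1 fit of all 12 pools, in which 1 of 194 members was called higher in CCL218 and 1 lower, against 0.69% and 0.182% of all 12613 genes. SLC6A8 rose more in CCL218, by 1.47 ± 0.27 on the log2 scale (adjusted p = 0.0331). SLC39A8, which fell in CCL218, had a difference of -1.25 ± 0.25, at the threshold (adjusted p = 0.050). With plate position as a block neither was called (adjusted p = 0.100 and 0.156). That block also pairs positions in OVCAR3, where same-letter pools correlated at 0.422, -0.692 and -0.5, so it cannot decide these calls. For SLC11A2 the difference was 1.96 ± 0.48 (adjusted p = 0.0978) and for SLC5A1 1.61 ± 0.39 (adjusted p = 0.0954), and without the R HCQ-evolved OVCAR3 pool they were called at 1.59 ± 0.24 (adjusted p = 0.00850) and 1.29 ± 0.19 (adjusted p = 0.00885).

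The remaining members among the 8 smallest interaction p-values did not pass with all pools. SLC4A11, a carrier that handles protons, was at 5.47, 4.18 and 4.62 CPM in control and 8.44, 6.33 and 13.8 CPM in HCQ-evolved OVCAR3. In CCL218 it was at 6.0, 3.22 and 3.73 CPM against 2.34, 2.15 and 2.52 CPM. It thus lay above its controls in OVCAR3 and below them in CCL218 (difference -1.88 ± 0.43, adjusted p = 0.0793, and -1.51 ± 0.36, adjusted p = 0.0705, without the R HCQ-evolved OVCAR3 pool). SLC7A7, a light chain of the cationic amino acid exchanger, differed by 1.22 ± 0.31 (adjusted p = 0.115), SLC6A20 by 1.02 ± 0.23 (adjusted p = 0.0793) and SLC25A15 by -0.74 ± 0.17 (adjusted p = 0.0766). Without that pool SLC7A7 (0.97 ± 0.18, adjusted p = 0.0263) and SLC25A15 (-0.76 ± 0.16, adjusted p = 0.0456) were called, as was SLC22A23, while SLC6A20 was not (1.0 ± 0.24, adjusted p = 0.0803).

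Few carriers were called between the control pools of the lines. Between control CCL218 and control OVCAR3, 2 of 194 members were called higher and 8 lower, where 1.35% and 2.07% of all genes were. The higher were SLC14A1 (1.04 ± 0.22, adjusted p = 0.0260) and SLC26A2 (1.28 ± 0.25, adjusted p = 0.0157), both of which fell after evolution. SLC6A14 (-2.17 ± 0.34, adjusted p = 0.00514), SLC28A1 (-2.06 ± 0.30, adjusted p = 0.00332) and SLC6A20 (-1.30 ± 0.17, adjusted p = 0.00157) were lower in control CCL218, and were called higher in its HCQ-evolved pools. SLC38A5 (-1.54 ± 0.27, adjusted p = 0.00913), SLC7A7 (-1.39 ± 0.22, adjusted p = 0.00591) and the ascorbate carrier SLC23A1 (-1.18 ± 0.20, adjusted p = 0.00869) were also lower. These comparisons share the control pools with those of HCQ-evolved pools, so both rest on the same control values. Without the R HCQ-evolved pool of OVCAR3, which enters this fit through the shared spread, 18 members were called between control pools, 5 higher and 13 lower.

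Outside the carriers, 19 of 23 subunits of the sodium pump and regulators of carriers were tested. ATP1B1, the beta subunit of the sodium and potassium pump that sets the gradient used by sodium-coupled carriers, was called higher in CCL218, with means of 329 CPM in control and 695 CPM in HCQ-evolved pools (log2 fold change 1.08, adjusted p = 0.00555), and its change differed between lines (0.99, adjusted p = 0.0363). WNK4, a kinase that regulates sodium and chloride cotransporters, was called lower in OVCAR3, with means of 66.9 and 13.8 CPM (-2.26, adjusted p = 0.0370), and WNK2 lower in CCL218 (-0.64, adjusted p = 0.0263).

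Some markers of cell type moved beside the carriers in CCL218, and others did not. Of 10 intestinal markers 7 were tested there, and CDX2 (1.54, adjusted p = 0.00275), CDH17 (3.77, adjusted p = 0.00120) and GPA33 (2.86, adjusted p = 0.000608) were called higher and the stem cell marker LGR5 lower (-1.18, adjusted p = 0.0210), while KRT20 was at or near 0 in every group. That is 42.9% higher and 14.3% lower, against 3.82% and 2.64% of all genes. The 2 most abundant, VIL1 (-0.02) and LGALS4 (-0.42), were not called, nor was FABP1 (1.14, adjusted p = 0.0821). The summed level of the 10 intestinal markers was 1140 to 1610 CPM in control and 1110 to 1160 CPM in HCQ-evolved CCL218, and 935 to 1140 CPM and 249 to 663 CPM in OVCAR3. Their part in the rise of the intestinal carriers SLC5A1, SLC6A20 and SLC11A2 was not tested. Of 7 blood and stromal markers, CD68, which is also a lysosomal protein, was called higher in CCL218 (1.98, adjusted p = 0.00102), with summed levels of the list of 15.5 to 16.9 CPM in control and 50.8 to 55.8 CPM in HCQ-evolved pools. In OVCAR3 they were 17.6 to 22.6 and 30.6 to 44.2 CPM, whereas the defining markers PTPRC and CD3E had group means of at most 0.0395 and 0.0602 CPM.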

How the data were processed

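RNA was sequenced from 12 pools, 3 for each of 4 groups. The authors aligned reads to hg38 with STAR, removed duplicates with RmDup and counted reads per gene with featureCounts, and deposited the counts without normalization. Versions, and whether counting used strand, are not given in the sources used here. All 12 columns were mapped to samples by title, and 0 columns were left without a sample.

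Counts were used unchanged. In each fit a gene needed 1 CPM or more in 3 or more of its libraries. The main test was edgeR 4.0.16 (R 4.3.3, quasi-likelihood F test in legacy mode, TMM scaling, robust dispersion), with each line fitted alone (3 pools against 3), Benjamini-Hochberg adjustment over all genes tested and a threshold of 0.05. The difference between lines and the comparison of control pools came from 1 fit of all 12 pools. Alternatives were DESeq2 1.42.0, its size factors, no filter, an offset for length and GC content, all pools in 1 fit, control pools only, plate position as a block, and leaving out each pool. The fits were tested on simulated data. Levels are CPM scaled by TMM over all 12 libraries, and pool medians used log2(CPM + 0.5). Transcript lengths and gene coordinates came from GENCODE 44, which held 25490 of 28278 symbols (90.1%).

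Control and HCQ-evolved pools share plate positions. Deviations from group means correlated across genes between same-position pools of CCL218 at 0.541 for L, 0.27 for M and 0.227 for R. Each exceeds 0.1, and for that reason blocked values are also given for this line. The main test had no block in either line, so its calls, standard errors and adjusted p-values are unpaired. Pools of unlike position correlated from -0.619 (control M with HCQ-evolved L) to 0.471 (control M with HCQ-evolved R). The latter is above the values for M and R, so the check does not show that position pairs these pools. Calls made only with the block depend on that choice. For CCL218, blocked values appear beside the results named by the rule whose call they change. Blocked values of the interaction, which pair positions in both lines, appear beside its calls, and the block in OVCAR3 is given with the alternatives.

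Members named were, in each line, the 10 highest and 10 lowest log2 fold changes among those called, those called in both lines, SLC14A1, the 8 smallest interaction p-values, the 6 highest and 6 lowest called between control pools, the most abundant of each class, those of the lysosome, osmolyte and ATF4 lists, and the 3 on each side of the level. The other members named (9 called in CCL218, and SLC22A18, SLC22A23, SLC37A2, SLC38A11 and SLC50A1) and the genes named from the sodium pump and marker lists were picked after their values were seen. The values of 1 called member and 1 marker are not reported here. Members and lists were chosen with earlier results of these data known. The total counts, 31147822 to 59965861 per library, limit the precision of members near 1 CPM most.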

Additional observations from a re-analysis of the deposited data

Results flagged for a closer look

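For SLC6A8, the creatine carrier, the change differed between lines in the interaction test, by 1.47 on the log2 scale (CCL218 minus OVCAR3, SE 0.27, adjusted p = 0.0331, edgeR). The change was 2.07 in CCL218 and 0.61 in OVCAR3. SLC39A8, an importer of zinc and manganese, differed by -1.25 (SE 0.25, adjusted p = 0.050, edgeR), with -1.06 in CCL218 and 0.22 in OVCAR3. SLC6A8 was called in 4 and SLC39A8 in 2 of the 12 fits that left out 1 pool. In those fits the differences ran from 1.26 to 1.60 and from -1.37 to -1.02, and both were smallest without the R HCQ-evolved pool of OVCAR3, where both were called (adjusted p = 0.00745 and 0.0244).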

How the results depend on the processing

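Counts of called members moved with the model more than their directions did. Over 588 alternative values of 41 results for named genes, 446 kept their side of the threshold, 15 passed it, 127 no longer passed it and 0 changed direction. From 5 called members in OVCAR3, the count became 10 without a filter on low counts, 21 with DESeq2, 15 with an offset for length and GC content and 23 with all 12 pools in 1 fit. It ranged from 0 to 14 when 1 pool was left out. From 32 in CCL218, it became 52 with DESeq2, 55 with the offset, 24 with all 12 pools in 1 fit (22 of the 32 kept) and 28 without the filter (23 kept), and ranged from 5 to 68 when 1 pool was left out, 68 being without the L control pool. From 2 for the difference between lines, it became 1 with DESeq2 size factors, 11 with DESeq2 and 9 with the offset, and ranged from 0 to 7. From 10 between control pools, it became 18 with DESeq2, 17 with the offset and 8 with control pools only, and ranged from 5 to 18. Shares of all genes called in these fits are not given, so the counts are not read as particular to the carriers. The cause was not tested.

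With a replicate block for plate position, CCL218 had 46 called members, all 32 kept, and 50 with the offset as well. The same replicate block gave 0 for the difference between lines, where 21 had an unadjusted p under 0.05. In OVCAR3, positions of the same letter correlated at 0.422, -0.692 and -0.5, so pools shared only a letter, and the replicate block gave 1 called member, SLC14A1, or 9 with the offset. The 14 members that the block added in CCL218 include SLC7A2, SLC38A5, SLC26A2 and SLC17A5, and it changed no other call of a gene named by the rule there. Depth limits members near 1 CPM, 8 of the 35 called members being under it in at least 1 pool.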

Other observations

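SLC25A6, an adenine nucleotide exchanger, had 0 counts over the 12 pools, and SLC39A7, a zinc carrier of the endoplasmic reticulum, had 2. SLC39A7 lies on chromosome 6, and between 28.5 and 33.5 Mb of that chromosome 151 of 233 genes had at most 3 counts in every pool, against 8851 of all 28278 genes. TAP1, PSMB9 and RING1 there had at most 2, 0 and 0 counts. These levels were not read as absence of expression, and their cause was not tested.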
